A study of Mus musculus with 6 samples.

Results

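Lipid-associated macrophage markers are genes that obese fat switches on in the macrophages crowding around dying adipocytes. These cells take up lipid released by adipocytes and break it down in their lysosomes. The surface receptor TREM2 binds lipids and lipoproteins and, having no signalling tail of its own, passes its signal through the adaptor TYROBP (also called DAP12). Of the 10 marker genes considered, Trem2, Tyrobp, Cd9, Gpnmb, Spp1, Itgax, Lgals3, Mmp12, Acp5 and Hvcn1, 9 could be measured, out of 22180 genes with an array row of their own. A gene was read from the brightest row whose annotation named that gene and no other. Spp1, the gene of osteopontin, had no row under its name in the annotation used here and is not analysed here.

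The arrays profiled eWAT, epididymal white fat, a visceral depot of the male abdomen. The mice were C57BL/6 males aged 8 months, and their high-fat feeding had lasted 21 weeks. There were 3 arrays of wild-type mice (WT 1 to WT 3) and 3 of transgenic mice with adipose-specific Blnc1, a long noncoding RNA (Tg 1 to Tg 3). Both groups ate this diet, and chow-fed mice are not analysed here. The labels call the replicates biological. They do not name the promoter that drives the transgene, and no row carried the symbol Blnc1 in the annotation used here, so the genotype was not checked here. Values are deposited log2 signals, so a difference of 1 is a doubling.

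The 12 general macrophage genes were all measured above the median row, with the brightest, Cd68 and C1qb, between 10.89 and 11.72 on every array. Melanocytes also express Gpnmb. Of their 5 measured genes, Pmel, Dct, Tyr and Tyrp1 read under 2 on every array and Mlana between 2.67 and 3.75, and their part in the Gpnmb values was not tested. Reproductive tract transcripts set 3 arrays apart. The epididymal gene Lcn9 read 9.87 in Tg 2 and between 0.91 and 1.62 elsewhere, and Spink8, also of the epididymis, read 6.55 in WT 2, 8.09 in WT 3 and at most 2.53 elsewhere. Results are therefore also given for WT 1, Tg 1 and Tg 3 alone, where 1 WT array stands for its group.

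Promoter windows of RefSeq (assembly GRCm38.p6, from 250 bases before to 50 bases after a gene's start) were found for 8 of the 10 genes, in 12 windows. A few of these windows are shown because their genes take different places in the results, the receptor Trem2 and the elastase Mmp12 with lower means in Tg and the phosphatase Acp5 with a higher one. Capitals mark the letters of the motifs searched, GAGGAAG, the core bound by the myeloid factor PU.1, and the E-boxes CATGTG and CACGTG, sites of the MITF and TFE factors, on both strands.
Trem2 (chr17:48346151-48346450, plus strand): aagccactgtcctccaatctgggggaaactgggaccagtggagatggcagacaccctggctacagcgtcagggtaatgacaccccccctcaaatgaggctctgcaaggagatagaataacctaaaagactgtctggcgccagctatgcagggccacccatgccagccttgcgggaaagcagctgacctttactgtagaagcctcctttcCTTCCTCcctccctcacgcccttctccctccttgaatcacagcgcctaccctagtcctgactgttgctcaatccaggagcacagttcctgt
Mmp12 (chr9:7344147-7344446, plus strand): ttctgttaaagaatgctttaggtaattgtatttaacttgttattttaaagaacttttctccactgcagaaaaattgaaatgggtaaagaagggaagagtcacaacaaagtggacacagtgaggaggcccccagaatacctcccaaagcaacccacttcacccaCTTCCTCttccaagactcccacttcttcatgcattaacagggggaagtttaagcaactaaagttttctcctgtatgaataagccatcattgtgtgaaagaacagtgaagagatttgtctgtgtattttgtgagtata
Acp5 (chr9:22130549-22130848, minus strand): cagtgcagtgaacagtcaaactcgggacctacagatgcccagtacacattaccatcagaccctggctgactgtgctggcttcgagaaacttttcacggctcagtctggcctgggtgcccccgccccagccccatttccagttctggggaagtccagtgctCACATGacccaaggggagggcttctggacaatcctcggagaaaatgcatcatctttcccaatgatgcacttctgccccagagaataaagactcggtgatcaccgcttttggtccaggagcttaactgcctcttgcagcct
In the Trem2 and Mmp12 windows the capitals are GAGGAAG read on the opposite strand, and in the Acp5 window CATGTG read on the opposite strand. The Acp5 window shown is the only one of that gene with a motif, and the Mmp12 window shown is the one with GAGGAAG. The windows shown therefore do not tie a motif to a direction. GAGGAAG was in 3 of the 12 windows, those of Trem2, Mmp12 and Spp1, against 13.6% of all 32851 windows. CATGTG was also in 3, those of Acp5, Cd9 and a second start of Mmp12, against 14.2% of all windows, and CACGTG was in 0 of the 12, against 7.15%. The other 2 windows of Acp5 and the windows of Gpnmb, Itgax and Lgals3 held none of the 3 motifs. These matches describe letters in the sequence and not binding.

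In Tg, 8 of the 9 markers had a lower mean than in WT and Acp5 a higher one, and with arrays centred on their median Lgals3 also turned higher, which left 7. Across all 41345 rows the mean was lower in Tg in 52.8%, and in 56.8% of the rows at or above the median row mean, to which all 9 markers belong. With arrays centred on their median it was lower in 39.8% of all rows. The median difference of the markers (Tg minus WT, log2) was -0.25, beside -0.01 over all rows and -0.04 over the brighter rows. Centring added 0.065 to every difference, so small differences depend on it. No marker passed the threshold, an adjusted p of 0.05 or below in limma with Benjamini-Hochberg adjustment over all rows. The background was the same, with 0% of rows called at that threshold. At an unadjusted p under 0.05, limma had 3 markers lower (Hvcn1, Tyrobp and Trem2) and 1 higher (Acp5), and over all rows 5.88% were lower and 4.43% higher by that rule, or 8.2% and 6.27% of the brighter rows.

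All 3 Tg arrays lay below all 3 WT arrays in 5 markers and above them in 1. These 6 markers with groups apart, counted on the deposited values, became 5 with arrays centred on their median and 5 with quantile normalization. Over all rows the groups lay apart downward in 9.35% and upward in 7.36%, and over the brighter rows in 13% and 9.15%. An exact 2-sided permutation test of 3 against 3 arrays gives at least 0.1, the value of each of the 6 markers whose groups lay apart. Fewer macrophages and less of a transcript in each macrophage cannot be told apart in RNA of whole tissue.

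**Figure D1:**
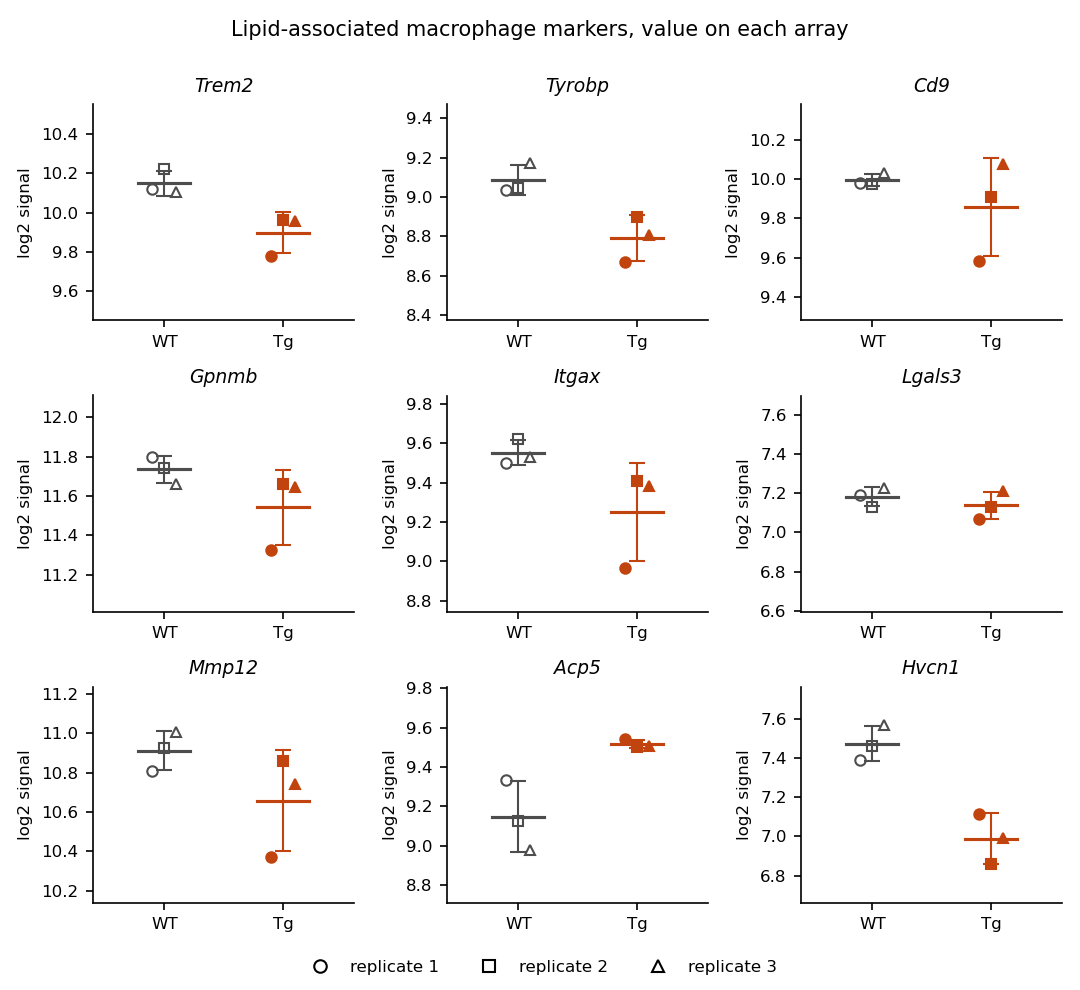
Log2 signal of the 9 measured markers on each array, with WT in open grey symbols, Tg in filled orange symbols, the replicate number as the symbol shape, a bar at the group mean and whiskers of 1 SD (n = 3). All panels span the same height on the log2 axis. The groups lie apart in Trem2, Tyrobp, Gpnmb, Itgax and Hvcn1 (Tg lower) and in Acp5 (Tg higher), and Tg 1 is the lowest array in 7 of the 9 panels.

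The receptor and its adaptor were both lower in Tg by about the same amount. Trem2 read 10.12, 10.22 and 10.11 in WT and 9.78, 9.96 and 9.96 in Tg, in the order of the replicate numbers used throughout. Every Tg array lay below every WT array, with Tg 1 the lowest. The difference was -0.25 ± 0.10 (SE, n = 3 per group), which is 1.19-fold, with a limma adjusted p of 0.48 and a 95% interval of -0.50 to -0.01. Tyrobp, whose product also serves other myeloid and natural killer cell receptors, read 9.04, 9.05 and 9.17 in WT and 8.67, 8.90 and 8.81 in Tg. These groups were apart as well, and the difference was -0.29 ± 0.11 (SE), 1.23-fold, with a limma adjusted p of 0.44. Without Tg 1 the differences were -0.19 for Trem2 and -0.23 for Tyrobp, and in the 3 arrays without tract signal -0.25 and -0.30.

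Among the other surface markers, Itgax, the integrin chain CD11c that dendritic cells also carry, read 9.50, 9.62 and 9.53 in WT and 8.96, 9.41 and 9.38 in Tg. The groups did not overlap, but Tg 1 lay further from Tg 2 and Tg 3 than these lay from WT. The difference was -0.30 ± 0.14 (SE), 1.23-fold, with a limma adjusted p of 0.53, and -0.16 without Tg 1. Genes of dendritic cells were dimmer, with Cd209a, the brightest of the 6 measured, between 6.29 and 6.62, and in none of the 6 were the groups apart. The mean signal of the 6 spanned 3.87 to 4.72 in WT and 3.95 to 4.06 in Tg, and their part in the Itgax difference was not tested. Gpnmb, a transmembrane glycoprotein of lipid-laden macrophages, read 11.80, 11.74 and 11.66 in WT and 11.32, 11.66 and 11.65 in Tg. Its groups touched, since WT 3 at 11.663 lay just above Tg 2 at 11.660, and the difference of -0.19 ± 0.13 (SE; limma adjusted p = 0.64) became -0.08 without Tg 1 and -0.32 in the 3 arrays without tract signal.

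Cd9, a tetraspanin used to sort these macrophages and also made by many stromal and endothelial cells, read 9.98, 9.98 and 10.03 in WT and 9.59, 9.91 and 10.08 in Tg. Tg 3 was the highest and Tg 1 the lowest of all 6 arrays, so the groups overlapped. The Tg values spread more (SD 0.25) than the WT values (SD 0.03), and the difference of -0.14 ± 0.14 (SE; limma adjusted p = 0.77) was -0.0014 without Tg 1. A second, dim row of Cd9 differed by -0.15 ± 0.14 with overlapping groups.

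The secreted products divided. Mmp12, the macrophage elastase, read 10.81, 10.93 and 11.00 in WT and 10.37, 10.86 and 10.74 in Tg. Tg 2 lay above WT 1, and the difference was -0.25 ± 0.15 (SE; limma adjusted p = 0.60), or -0.11 without Tg 1. Lgals3, the gene of galectin-3, a lectin that binds sugars on damaged lysosomes and at the cell surface, read 7.19, 7.13 and 7.22 in WT and 7.07, 7.13 and 7.21 in Tg. The arrays were mixed in order, and the difference of -0.04 ± 0.09 (SE; limma adjusted p = 0.90) had a 95% interval of -0.27 to 0.18 and turned to 0.02 with arrays centred on their median.

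Acp5, the tartrate-resistant acid phosphatase known from osteoclasts and foamy macrophages, went the other way. It read 9.34, 9.13 and 8.98 in WT and 9.54, 9.50 and 9.51 in Tg. No WT array reached the lowest Tg array, and here the WT arrays spread more (SD 0.18) than the Tg arrays (SD 0.02). The difference was 0.37 ± 0.12 (SE, n = 3 per group), 1.29-fold higher in Tg, with a 95% interval of 0.09 to 0.66 and a limma adjusted p of 0.40. WT 1 was the WT array nearest to Tg. Against it alone, in the 3 arrays without tract signal, Acp5 was higher by 0.19, and leaving out 1 array at a time gave 0.29 to 0.47.

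Hvcn1, a voltage-gated proton channel that supports the oxidative burst of phagocytes, had the largest difference among the markers as deposited, and the second after Acp5 with arrays centred on their median (-0.42 and 0.44). It read 7.39, 7.46 and 7.57 in WT and 7.11, 6.86 and 6.99 in Tg. The groups were apart, and Tg 1 was here the highest Tg array. The difference was -0.48 ± 0.11 (SE, n = 3 per group), 1.40-fold, with a 95% interval of -0.75 to -0.22 and a limma adjusted p of 0.33, and it was -0.33 in the 3 arrays without tract signal. B cells also express Hvcn1. Of 5 measured B cell genes, all had a lower mean in Tg, and their mean signal spanned 4.50 to 5.09 in WT and 3.79 to 5.08 in Tg. In the 3 arrays without tract signal only 1 of the 5, Cd22, had a lower mean in Tg, and their median difference was 0.11. Cd79a read 5.10, 5.82 and 5.93 in WT and 5.96, 3.86 and 4.95 in Tg, so it overlapped between the groups. The brighter Cd22 read 6.55, 6.66 and 6.85 in WT and 6.32, 6.16 and 6.32 in Tg. The part of B cells in the Hvcn1 difference was not tested. A row that names Hvcn1 together with Tctn1 was not used.

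**Figure D2:**
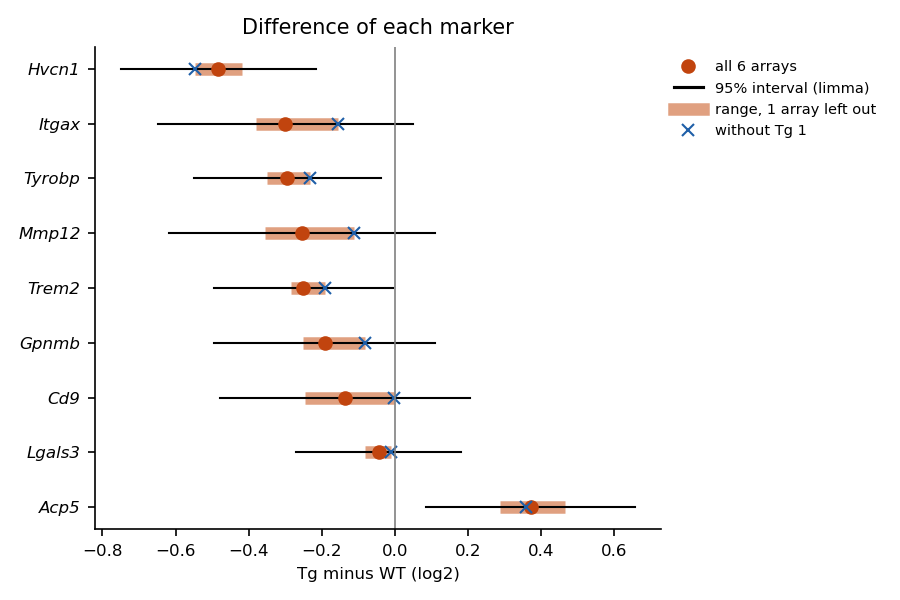
Difference of each marker between Tg and WT on the log2 scale, with all 6 arrays (orange circles), its 95% interval from limma (black lines), the range when any 1 array is left out (orange bars) and the value without Tg 1 (blue crosses). Hvcn1, Tyrobp, Trem2 and Acp5 have intervals that do not cross 0, and without Tg 1 the differences of Cd9 and Lgals3 lie next to 0.

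The lower signal of most markers was uneven across the Tg arrays. Averaged over the 9 markers and set against the mean of all 6 arrays, WT read 0.08, 0.09 and 0.09 while Tg read -0.22, -0.03 and -0.01. The WT means were thus close together (SD 0.01) and Tg 1 stood off from the other Tg arrays. Single markers spread more in WT (SD 0.03 to 0.18). From WT 1 to WT 3 Acp5 fell (9.34, 9.13 and 8.98), as Gpnmb did, while Tyrobp, Mmp12 and Hvcn1 rose. These opposite trends partly cancelled in the mean. Tg 1 was the lowest array in 7 markers, WT 3 in Acp5 and Tg 2 in Hvcn1. Without Tg 1 the same 8 markers had lower means in Tg, but the median difference of all 9 shrank from -0.25 to -0.11.

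The mean of the general macrophage genes gave another profile over the same arrays. All 12 had a lower mean in Tg, 9 with groups apart and 7 at an unadjusted p under 0.05 in limma, and 0 passed after adjustment. Their median difference was -0.35, and Cd68 differed by -0.10 ± 0.09 and C1qb by -0.16 ± 0.09 (SE). The array means were 0.06, 0.13 and 0.33 in WT and -0.12, -0.21 and -0.19 in Tg. WT 3 was thus the highest and Tg 1 the highest Tg array, where for the lipid-associated markers Tg 1 was the lowest. Single general genes were divided in this. Tg 1 was the highest Tg array for Csf1r, Fcgr1, Aif1, C1qa, C1qb and C1qc. The gap was widest in Aif1 (5.64 against 4.86 and 4.99) and C1qa (8.87 against 8.21 and 8.33). For Adgre1, Cd68, Itgam and Lyz2, Tg 1 was the lowest of all 6 arrays, so a low Tg 1 was not particular to the lipid-associated markers. In the 3 arrays without tract signal the median difference was -0.18 for the general genes and -0.25 for the lipid-associated markers. Whether the 2 lists differ was not tested.

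Resident macrophage genes were mixed in direction. Of 6 measured, 4 had a higher mean in Tg, with groups apart upward in 2 and downward in 2. The brightest, Folr2 and Mrc1, differed by -0.23 ± 0.13 and -0.24 ± 0.11 (SE). Without WT 1 the Folr2 difference was -0.11. The arrays without tract signal gave -0.50 for Folr2 and -0.05 for Mrc1. Lyve1, which lymphatic endothelium also carries, and the haemoglobin scavenger receptor gene Cd163 were higher by 0.66 ± 0.14 and 0.64 ± 0.14 (SE), each with a limma adjusted p of 0.33. These last genes were chosen after their values were seen. The array means of the 6 genes were -0.01, -0.17 and -0.09 in WT and 0.23, -0.05 and 0.09 in Tg.

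**Figure D3:**
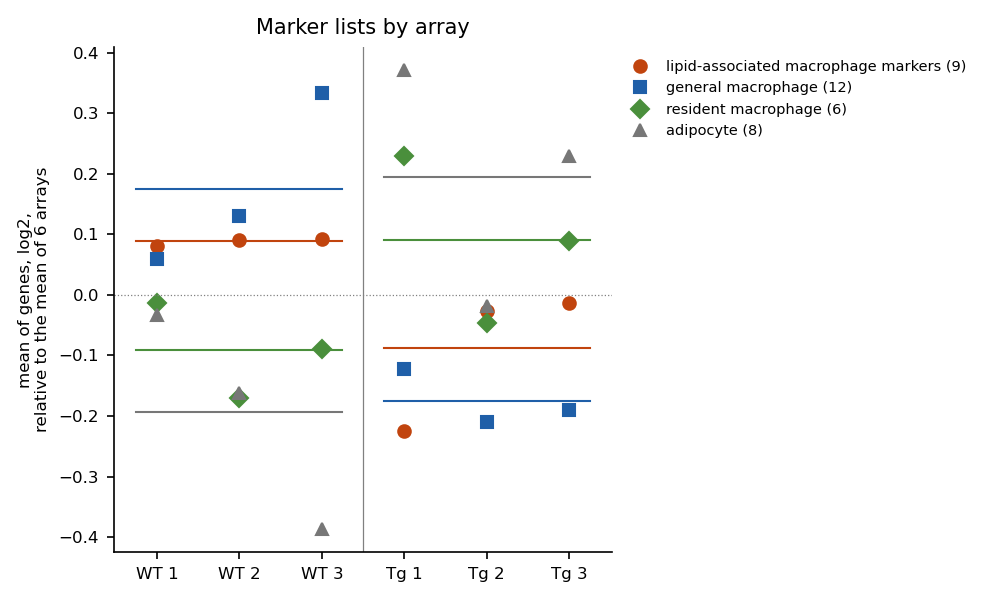
Mean of the genes of 4 marker lists on each array, as log2 signal relative to each gene's mean over the 6 arrays, with the number of genes in brackets and lines at the group means. Tg 1 is the lowest array for the lipid-associated markers (-0.22) and the highest for the adipocyte genes (0.37), and WT 3 is the highest for general macrophage genes (0.33).

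Genes of other cell types were read on the same arrays. All 8 adipocyte genes had a higher mean in Tg, 6 with groups apart, and their array means were -0.03, -0.16 and -0.39 in WT and 0.37, -0.02 and 0.23 in Tg. Adipocyte genes were thus highest in Tg 1, where most lipid-associated markers were lowest. The mean signal of the adipocyte genes spanned 9.03 to 9.38 in WT and 9.40 to 9.79 in Tg, and their part in the marker differences was not tested. T and NK cell genes all had a lower mean in Tg, with groups apart in 0 of 8. Of these cells, NK cells use Tyrobp. The NK receptor genes Ncr1 and Klrb1c differed by -0.17 ± 0.34 and -0.13 ± 0.38 (SE). The T cell genes Cd3d, Cd3e, Cd3g, Cd4 and Cd8a differed by -0.85 to -1.16, and Nkg7 by -0.85. The median difference of all 8 was -0.87, with mean signals of 3.79 to 5.70 in WT and 3.80 to 4.43 in Tg. In the arrays without tract signal 7 of the 8 had a higher mean in Tg, and the median difference was 0.35. Their part in the Tyrobp difference was not tested. All 7 mast cell genes had a lower mean in Tg with groups apart and an unadjusted p under 0.05 in limma, where 0 passed after adjustment. They had mean signals of 6.28 to 7.24 in WT and 5.26 to 5.82 in Tg, and their part in the marker differences was not tested either.

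Downstream of the receptor, TYROBP recruits the kinase SYK, which feeds adaptors, phospholipase and guanine exchange factors. The list of 16 genes for this pathway also holds some that are not downstream of SYK, such as the protease genes Adam10 and Adam17. Of the 16, 15 were measured. All 15 had a lower mean in Tg as deposited and 14 with arrays centred on their median. In 8 the groups were apart, 6 had an unadjusted p under 0.05 in limma and 0 passed after adjustment. The median difference was -0.32. The smallest p belonged to Vav1, an exchange factor of blood cells, at 6.90, 7.13 and 7.22 in WT and 6.51, 6.59 and 6.65 in Tg. It differed by -0.50 ± 0.12 (SE; limma adjusted p = 0.33). The lipid phosphatase gene Inpp5d, a brake on this pathway, differed by -0.36 ± 0.11 (adjusted p = 0.38 in limma) and the kinase gene Btk by -0.47 ± 0.14 (adjusted p = 0.38 in limma). Syk itself read 7.70, 7.71 and 7.98 in WT and 7.39, 7.52 and 7.68 in Tg, a difference of -0.26 ± 0.13 with groups apart, or -0.17 without WT 3. In the 3 arrays without tract signal Vav1 differed by -0.33 and Syk by -0.16. Many of these genes also work in lymphocytes and other leukocytes.

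Lipid handling genes act on the lipid that these cells take up. Of 12 measured, 8 had a lower mean in Tg (7 with arrays centred on their median and 9 with cyclic loess), 4 with groups apart, 1 at an unadjusted p under 0.05 and 0 past the threshold in limma, with a median difference of -0.09 (-0.02 with arrays centred on their median). The cholesterol exporter gene Abcg1 differed by -0.42 ± 0.14, the cholesterol ester hydrolase gene Nceh1 by -0.31 ± 0.14 and the droplet coat gene Plin2 by -0.19 ± 0.10 (SE), with limma adjusted p of 0.42, 0.51 and 0.55. Lpl, Fabp4 and Cd36, which adipocytes or endothelium also express, read 0.05 ± 0.10, 0.10 ± 0.09 and 0.02 ± 0.11 (Tg minus WT, SE). For Abcg1 the difference was -0.16 in the 3 arrays without tract signal, and for Nceh1 it was -0.17 without Tg 1.

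Lysosomal genes of these cells, 13 of 14 measured, all had a lower mean in Tg, and 11 did with arrays centred on their median. In 6 the groups were apart, 4 had an unadjusted p under 0.05 and 0 passed in limma. The median difference was -0.12, or -0.06 with arrays centred on their median. Ctsk, a collagen-degrading cathepsin that osteoclasts share with Acp5, read 9.10, 9.51 and 9.40 in WT and 8.49, 8.80 and 8.90 in Tg. This gave -0.61 ± 0.16 (SE; limma adjusted p = 0.35), opposite in sign to Acp5. The cathepsin gene Ctsz differed by -0.30 ± 0.10 and the asparagine endopeptidase gene Lgmn by -0.24 ± 0.09, both with groups apart. Ctsb, among the brightest, differed by -0.0044 ± 0.088.

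MITF and its relatives TFEC, TFEB and TFE3 are transcription factors of lysosomal and osteoclast genes, and Gpnmb and Acp5 are known targets of MITF. Of 10 regulators and cell fusion genes, 7 had a lower mean in Tg (6 with arrays centred on their median), 3 with groups apart, 1 at an unadjusted p under 0.05 and 0 past the threshold in limma. Tfec, the family member most restricted to macrophages, read 5.48, 6.00 and 5.74 in WT and 4.42, 5.08 and 5.03 in Tg. The groups were apart, and the difference was -0.89 ± 0.22 (SE), 1.86-fold, with a limma adjusted p of 0.34 and -0.68 without Tg 1. Mitf differed by -0.22 ± 0.12 and Tfe3 by -0.16 ± 0.09, with groups apart in both, and Mitf by -0.12 without Tg 1, while Tfeb read 0.08 ± 0.15 with overlapping groups. Without Tg 1 the median of the 10 genes was 0.0031, against -0.15 with it. Dcstamp, needed for macrophage fusion, read 4.48 in Tg 1 and between 5.11 and 5.64 on the other 5 arrays.

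Although Spp1 itself was not measured, its receptors were. Of 11 genes listed as receptors and partners of osteopontin and galectin-3, 7 had a lower mean in Tg (8 with cyclic loess). In 5 the groups lay apart downward and in 1, Cd81, upward (0.27, or 0.15 without WT 3). Cd81 encodes a tetraspanin, as Cd9 does, and is not an osteopontin receptor. In limma 3 of the 11 had an unadjusted p under 0.05 and 0 passed. Cd44, a receptor of hyaluronan and osteopontin, read 7.95, 8.04 and 8.02 in WT and 6.95, 7.49 and 7.39 in Tg. The groups were apart, with Tg 1 again lowest, and the difference was -0.72 ± 0.16 (SE), 1.65-fold, with a limma adjusted p of 0.33. It was -0.56 without Tg 1 and -0.78 in the 3 arrays without tract signal. Itgb2, the chain that pairs with the Itgax product, differed by -0.40 ± 0.14 with groups apart, and the integrin gene Itgav by -0.27 ± 0.10, also apart. The widely expressed Itgb1 read 0.02 ± 0.09 (Tg minus WT, SE).

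**Figure D4:**
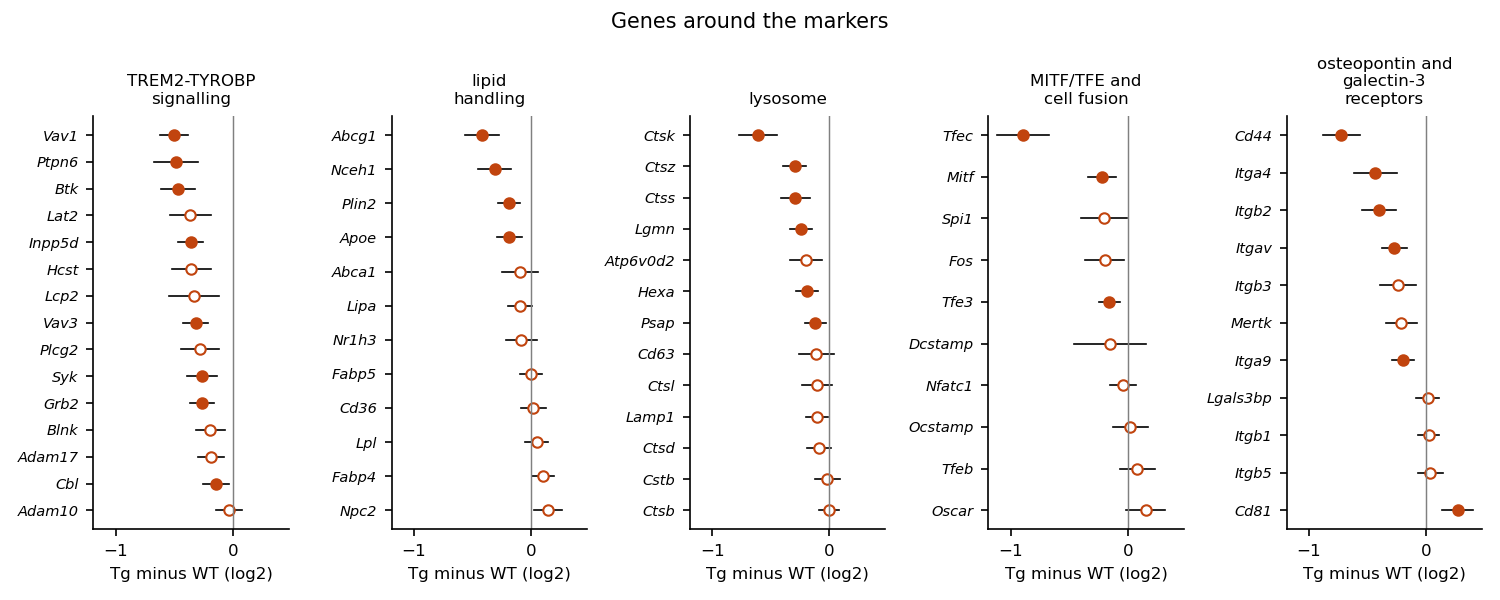
Difference between Tg and WT on the log2 scale, with SE from limma as lines, for the measured genes of 5 lists around the markers. Filled circles have groups that do not overlap. Tfec (-0.89), Cd44 (-0.72) and Ctsk (-0.61) lie farthest to the left, and Cd81 (0.27) is the filled circle on the right.

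The genes nearest to the mean profile of the 9 markers were found among 8969 genes at or above the median row mean whose range over the arrays was at least as wide. The measure was the mean absolute difference from the profile over the 6 arrays, in log2 units. Nearest were Sgpl1, the sphingosine phosphate lyase of sphingolipid breakdown (0.013), the endosomal sorting gene Snx1 (0.013), Cttnbp2nl (0.015), B130034C11Rik (0.017) and Api5, an apoptosis inhibitor (0.024). Sgpl1 read 9.55, 9.58 and 9.59 in WT and 9.26, 9.42 and 9.47 in Tg, with Tg 1 again lowest. None of the 5 is a macrophage marker of the lists used here.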

How the data were processed

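The deposited log2 signals, 1 column per array, came from Affymetrix whole-transcript arrays hybridised with biotin-labelled cDNA, per the labels. RMA, which normalizes between arrays, and limma were named per the submitters' processing notes. Versions, settings and any filter are not given in the sources used here, nor is a genome build. RMA hides a change of total RNA and compresses differences between low signals. Of 41345 rows, 23521 named 1 gene in the platform annotation.

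Tg was compared with WT in limma 3.58.1 (R 4.3.3; lmFit, eBayes, 2-sided, all rows, no filter, no covariate), with Benjamini-Hochberg adjustment over all rows and a threshold of 0.05. The procedure was tested on simulated data whose changes were larger than any marker difference. That test does not show how often a difference of the markers' size would be called. With 3 arrays per group, their number limits the precision. The members and lists were chosen with earlier results of these data known. Named were all markers, the 3 genes of smallest p in each pathway list and the 5 genes nearest to the markers' mean profile. The 2 brightest genes were named for general macrophages, resident macrophages and B cells, and the brightest gene for dendritic cells. Other genes were chosen after their values were seen. They were Syk, Lpl, Fabp4, Cd36, Ctsb, Tfeb, Dcstamp, Cd81, Itgb1, Lyve1 and Cd163. Also among them were the other general macrophage genes named, and the T and NK cell, epididymal and melanocyte genes named. Mertk is in 2 lists. Alternatives left out arrays, added the replicate block, renormalized in 3 ways, filtered dim rows, changed the variance model and averaged a gene's rows.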

Additional observations from a re-analysis of the deposited data

How the results depend on the processing

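Over 14 alternatives the 9 markers gave 126 values, of which 125 kept their direction and stayed short of the threshold. The exception was Lgals3, which turned to 0.021 with arrays centred on their median, a setting that raised the median of all rows by 0.065. The replicate block, the filter of dim rows and the changed variance model act on p alone and cannot alter a difference. Averaging a gene's rows could alter only Cd9, the marker with a second row. The directions under these settings were therefore fixed in advance and say nothing about stability. The smallest adjusted p of any marker under any alternative was 0.22 in limma. Leaving out 1 array at a time moved the median difference of the markers between -0.28 and -0.11, the latter without Tg 1, and calls stayed at 0 members. With the replicate block the smallest adjusted p over all rows was 0.42 and 0 rows were called. Replicate numbers gave no sign of pairing. Over rows, the deviations of same-numbered arrays from their group means correlated at -0.04, 0.0073 and -0.04, and those of other arrays between -0.03 and 0.07. With all values this low, many of them from dim rows, the check cannot show that the arrays were unpaired. Groups that lie apart mean less where an array is left out, as fewer arrays have to separate. Depth does not apply to arrays, and without background values a dim gene was described by its level.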
